A study of Mus musculus with 6 samples.

Results

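The potassium channel genes *Kcnc1*, *Kcnc2*, *Kcnc4*, *Kcna1*, *Kcna2*, *Kcnab1*, *Kcnd2*, *Kcnma1* and *Kcnn2* are known for their part in the firing of cerebellar neurons. These 9 genes, of 32286 in each table, were taken as a list, and their counts were summed in each mouse over the nuclei of each cell type. Single-nucleus RNA was read from the cerebellum of 3 *Pcp2-ATXN1[82Q]* mice (SCA1) and of 3 wild-type littermates (WT), all aged 12 weeks and on a C57Bl6 background, with 1 library per mouse. The SCA1 mice hold a human *ATXN1* transgene with a long CAG repeat. Its *Pcp2* promoter works in Purkinje cells (PCs), so the transgene is driven in 1 of the cell types described here, while WT mice carry none. The tables held 45473 nuclei with a SingleR label, a cell type name assigned by comparison with a reference. The 13 labels with at least 10 nuclei in every mouse, 45042 nuclei in all, were kept.

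Potassium channels let potassium leave the cell, which ends the action potential and sets the interval to the next one. PCs fire spontaneously at high and regular rates, and fast voltage-gated, calcium-activated and A-type potassium currents shape this pattern. Pore-forming subunits of one family assemble in groups of 4, and auxiliary subunits such as Kv beta proteins change their gating and transport.

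Libraries held 18916647 to 98366627 unique molecular identifiers (UMIs, counted transcripts) over 3354 to 10897 nuclei. PC nuclei were few, 29 to 76 per mouse and 292 in all, but deep, with a median of 36466.5 UMIs, while the 37532 granule neurons had a median of 5923. The median nucleus of WT mouse 2 held 2246.5 UMIs against 4496 to 7253 in the other mice, and any 2 libraries shared between 7 and 44 cell barcodes. Library numbers place SCA1 mouse 1 and WT mouse 1 in a first sequencing run, called batch 1 here, an inference from those numbers. The processing of that run kept only deeper nuclei.

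Levels are given as UMIs per 1000000 UMIs of the label's summed nuclei (CPM), as the mean ± SD over 6 mice where labels are compared. Labels were checked against marker genes. The PC label (Neuron.Gad1Gad2.Pcp2) led in *Itpr1*, at 10316 ± 2299 CPM, and in *Calb1*, at 834 ± 136 CPM. The granule label (Neuron.Slc17a7.Gabra6) led in *Gabra6*, at 737 ± 114 CPM. Of the 5 interneuron labels, Lgi2 led in the Golgi cell markers *Slc6a5* and *Lgi2*, Pvalb-Nefh and Pvalb-Rab3b in *Sorcs3*, and Pvalb-Cadm1 and Pvalb-Chrm2 in *Nxph1*. Neuron.Slc17a6.Sln led in *Eomes*, a unipolar brush cell gene, and Neuron.Slc17a6.Nrgn is called by its label only. Astrocyte.Gja.Slc1a3 led in *Gdf10* (Bergmann glia, BG), Gja1.Htra1 in *Aqp4* (velate astrocytes, VA) and Oligodendroyte.Trf.Il33 in *Mog* (oligodendrocytes, OL). Endothelial_Tip.Dcn.Nnat carried the fibroblast gene *Dcn* at 374 ± 153 CPM, while the endothelial genes *Cldn5* and *Pecam1* were at 1.88 and 2.25 CPM, and it is called Dcn-Nnat below. The label was also the most frequent one of the nucleus's Seurat cluster in the same mouse for 14.4% of Pvalb-Chrm2, 0% of Pvalb-Rab3b and 47.9% of Lgi2 nuclei, against 77.9% to 99.2% in the other 10 labels.

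All 9 genes were annotated in GENCODE's mouse set on GRCm38. *Kcnab1* lies on chr3:65109384-65378223 (plus strand), *Kcna2* on chr3:107101146-107115005 (plus strand) and *Kcnc4* on chr3:107438303-107459552 (minus strand), with 323 kb between *Kcna2* and *Kcnc4*. *Kcnd2* lies on chr6:21215503-21729805 (plus strand), *Kcna1* on chr6:126640397-126646384 (minus strand), *Kcnc1* on chr7:46396497-46438704 (plus strand), *Kcnc2* on chr10:112271121-112467024 (plus strand) and *Kcnma1* on chr14:23289431-24014491 (minus strand). Reads on introns were counted, and the genes differ in how much of them is exon, from 1.00% of *Kcnd2*, 514 kb long, to 85.9% of *Kcna2*, 13.9 kb long. Levels are therefore compared between cell types and mice for 1 gene at a time, never between genes.

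RefSeq promoter windows (GRCm38.p6) were at hand for 7 of the 9 genes. Shown are the 250 bases before a start of *Kcnab1* (chr3:65108764-65109013, plus strand, 1 of its 3 windows) and of *Kcnd2* (chr6:21215096-21215345, plus strand), since these genes were highest in PCs and in granule neurons, respectively. Capitals mark matches, on either strand, to CANNTG or GGGCGG.
*Kcnab1*: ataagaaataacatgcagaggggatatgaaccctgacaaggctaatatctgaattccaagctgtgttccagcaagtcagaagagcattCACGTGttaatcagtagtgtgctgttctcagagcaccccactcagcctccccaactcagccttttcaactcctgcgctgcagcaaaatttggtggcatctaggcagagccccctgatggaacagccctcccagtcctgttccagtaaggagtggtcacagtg
*Kcnd2*: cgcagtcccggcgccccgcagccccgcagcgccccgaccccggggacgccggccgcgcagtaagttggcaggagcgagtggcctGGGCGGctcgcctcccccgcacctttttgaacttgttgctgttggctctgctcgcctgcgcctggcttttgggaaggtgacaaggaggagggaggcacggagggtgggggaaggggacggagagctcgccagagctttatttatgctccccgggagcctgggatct
The shown *Kcnab1* window held 2 CG dinucleotides and 1 CANNTG, and the *Kcnd2* window 22 CG dinucleotides and 1 GGGCGG. Neither held AGGTCA or TATAAA. The bases shortly after these 2 windows were not matched to a GENCODE transcript of the gene. Those after another *Kcnab1* window (chr3:65187853-65188102, 1 CG and no GGGCGG) were. The *Kcnab1* window at chr3:64948962-64949211 held 6 CG and 2 GGGCGG. *Kcnma1*, also highest in PCs, had 31 CG and 3 GGGCGG in its window, so the shown pair does not stand for the 2 cell types. Of 32851 RefSeq windows of this length, 66.2% held CANNTG, 32.7% GGGCGG, 14.0% AGGTCA and 12.4% TATAAA, and the median number of CG was 6. The counts do not say which of the starts of *Kcnab1* a nucleus used.

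Only *Kcnab1* and *Kcnma1* of the 9 genes had their highest level in PCs. In the other 7 genes the PC label ranked between 7 and 13 of the 13 labels by CPM, counted from the highest. CPM is a share of a label's UMIs and not an amount per nucleus, and PC nuclei were the deepest. By the mean share of nuclei with a UMI, some orders differed. For *Kcna2* it was 75.5% in PCs and 38.5% in granule neurons. For *Kcnc1* it was 73.4% in PCs, 38.8% in OL and 39.6% in BG, but 83.3% in granule neurons. For *Kcnc4* PCs stayed below granule neurons, at 5.14% against 8.33%. The labels were assigned from expression, so the order of the labels is a description without a test.

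**Figure D1:**
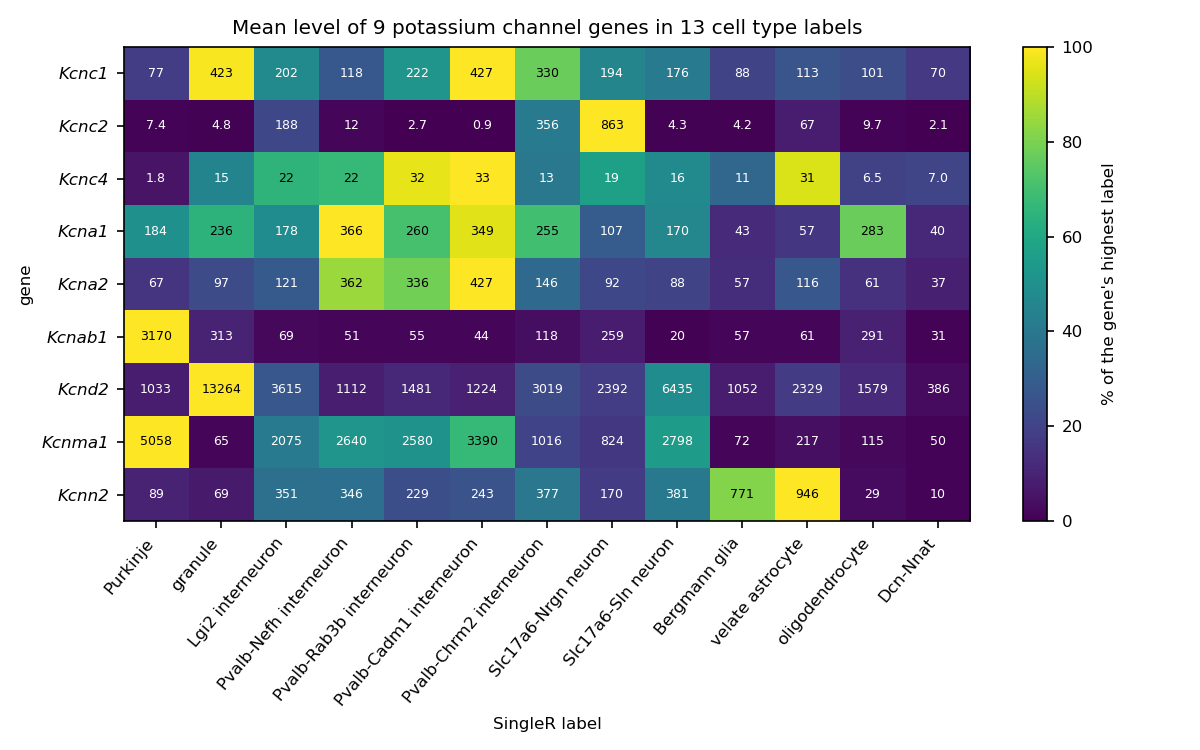
Mean level over 6 mice of each gene (rows) in each SingleR label (columns): the printed number is the level in CPM and the color is that level as a percentage of the gene's highest label. *Kcnab1* and *Kcnma1* peak in the Purkinje column, at 3170 and 5058 CPM, *Kcnd2* in the granule column, at 13264 CPM, and *Kcnn2* in velate astrocytes, at 946 CPM.

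*Kcnab1* encodes a Kv beta subunit, an auxiliary protein that binds Kv1 channels and can speed their inactivation. Its level in PCs was 3170 ± 803 CPM, with 2270, 2530 and 3186 CPM in SCA1 mice 1, 2 and 3 and 3159, 3295 and 4580 CPM in WT mice 1, 2 and 3. The next labels, granule neurons at 313 ± 63.7 CPM, OL at 291 ± 86.8 CPM and Slc17a6.Nrgn neurons at 259 ± 85.4 CPM, lay far lower, and PCs were 10.1-fold above the granule label. Every mouse showed PCs above the other 12 labels, and the PC range did not overlap that of the next label. The granule, OL and Slc17a6.Nrgn ranges overlapped. Levels then fell from 118 CPM in Pvalb-Chrm2 interneurons to 20.2 CPM in Slc17a6.Sln neurons, with overlapping ranges throughout. PCs made up 292 of 45473 nuclei and held 27.5% of all *Kcnab1* UMIs. Their nuclei were also deeper, with a median of 36466.5 UMIs against 5923 in granule neurons.

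*Kcnma1* encodes the pore of the BK channel, a large-conductance channel opened by calcium and depolarization. It was at 5058 ± 1379 CPM in PCs, with 4411, 3889 and 5048 CPM in SCA1 mice 1 to 3 and 4754, 4489 and 7760 CPM in WT mice 1 to 3. WT mouse 3 stood above the others. Pvalb-Cadm1 interneurons followed at 3390 ± 508 CPM, lower in 6 of 6 mice although the ranges of both labels overlapped, and then Slc17a6.Sln neurons at 2798 CPM, Pvalb-Nefh at 2640 CPM, Pvalb-Rab3b at 2580 CPM and Lgi2 at 2075 CPM. A gap without overlap separated these from Pvalb-Chrm2 interneurons at 1016 CPM, and a further one separated Slc17a6.Nrgn neurons at 824 ± 62.1 CPM from VA at 217 ± 71.7 CPM. Granule neurons, at 65.4 ± 42.0 CPM, were next to the lowest, with 29.4 to 140 CPM over the mice.

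*Kcnn2* encodes SK2, a small-conductance channel gated by calcium through calmodulin, and lies on chr18:45268860-45686024 (plus strand). It was highest in VA, at 946 ± 354 CPM, and BG, at 771 ± 279 CPM, which overlapped. Slc17a6.Sln neurons and the Pvalb-Chrm2, Lgi2 and Pvalb-Nefh interneurons came next, between 346 and 381 CPM, all overlapping. Pvalb-Cadm1 (243 CPM) and Pvalb-Rab3b (229 CPM) interneurons lay below without overlap with Pvalb-Nefh, and Slc17a6.Nrgn neurons followed at 170 CPM. PCs were at 89.1 ± 25.7 CPM, below 9 labels in every mouse, and overlapped granule neurons at 69.0 ± 6.47 CPM. OL (28.7 CPM) and Dcn-Nnat nuclei (10.4 CPM) were lowest.

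**Figure D2:**
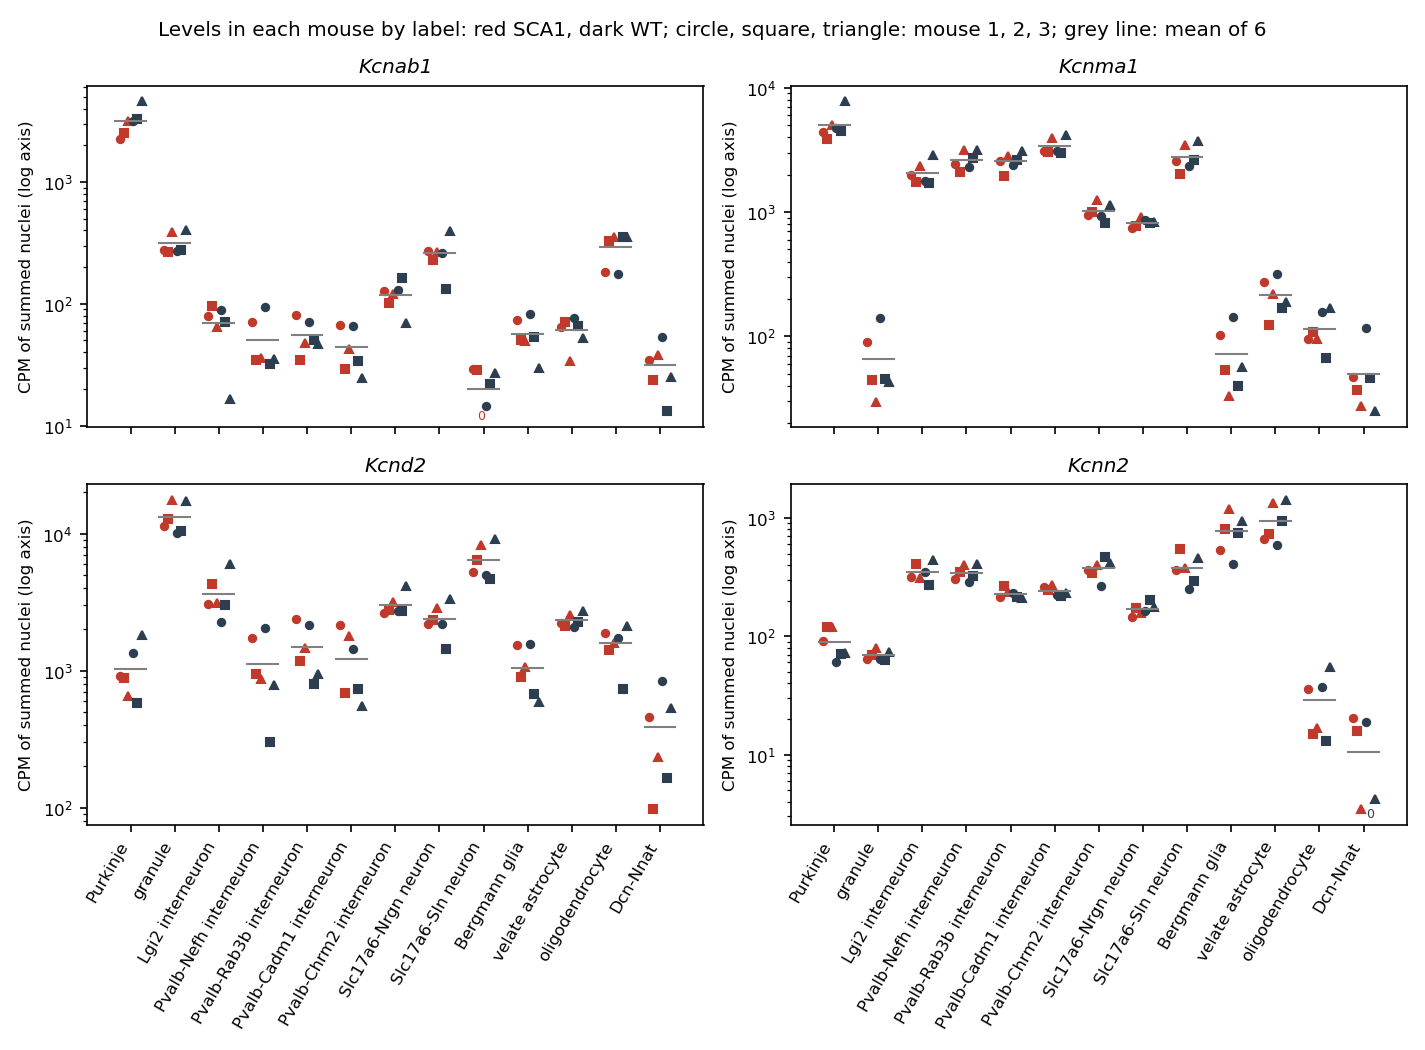
Levels of 4 genes in each of 6 mice (points, red SCA1 and dark WT) in 13 labels, as CPM of summed nuclei on a log axis; grey lines are means and a 0 near the axis marks a mouse with no UMI. Every mouse has its highest *Kcnab1* and *Kcnma1* level in Purkinje nuclei and its highest *Kcnd2* level in granule neurons, while *Kcnn2* is highest in the velate astrocyte and Bergmann glia labels.

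*Kcnd2* encodes Kv4.2, which carries a transient A-type current below threshold. Granule neurons were at 13264 ± 3349 CPM, 2.06-fold above Slc17a6.Sln neurons at 6435 ± 1830 CPM, with no overlap. They made up 37532 of 45473 nuclei and held 94.6% of all *Kcnd2* UMIs. Lgi2 (3615 CPM) and Pvalb-Chrm2 (3019 CPM) interneurons, Slc17a6.Nrgn neurons (2392 CPM) and VA (2329 CPM) followed, and each overlapped its neighbor. OL (1579 CPM), Pvalb-Rab3b (1481 CPM), Pvalb-Cadm1 (1224 CPM) and Pvalb-Nefh (1112 CPM) interneurons, BG (1052 CPM) and PCs (1033 ± 474 CPM) formed an overlapping series, with Dcn-Nnat nuclei at 386 CPM.

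A granule transcript in the free RNA of a droplet library can be counted in other nuclei, so the *Kcnd2* and *Kcnc1* levels outside granule neurons were set beside those of 5 granule markers (*Gabra6*, *Fat2*, *Cadps2*, *Slc17a7* and *Rbfox3*), each as a percentage of the granule level in the same mouse. In PCs the markers were at 5.40%, 4.32% and 1.15% in SCA1 mice 1, 2 and 3 and at 9.73%, 1.13% and 5.82% in WT mice 1 to 3. *Kcnd2* was at 8.01%, 6.82% and 3.73% in SCA1 mice 1 to 3 and 13.3%, 5.53% and 10.6% in WT mice 1 to 3. The *Kcnd2* percentage was above that of the markers in all 6 mice, and the mouse with the highest markers had the highest *Kcnd2*. In BG the median over mice was 9.66% for the markers and 6.73% for *Kcnd2*, and in OL 11.4% and 11.6%. In Slc17a6.Sln neurons the median was 47.9% for *Kcnd2* and 19.7% for the markers. The part of free RNA in these levels was not tested.

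**Figure D3:**
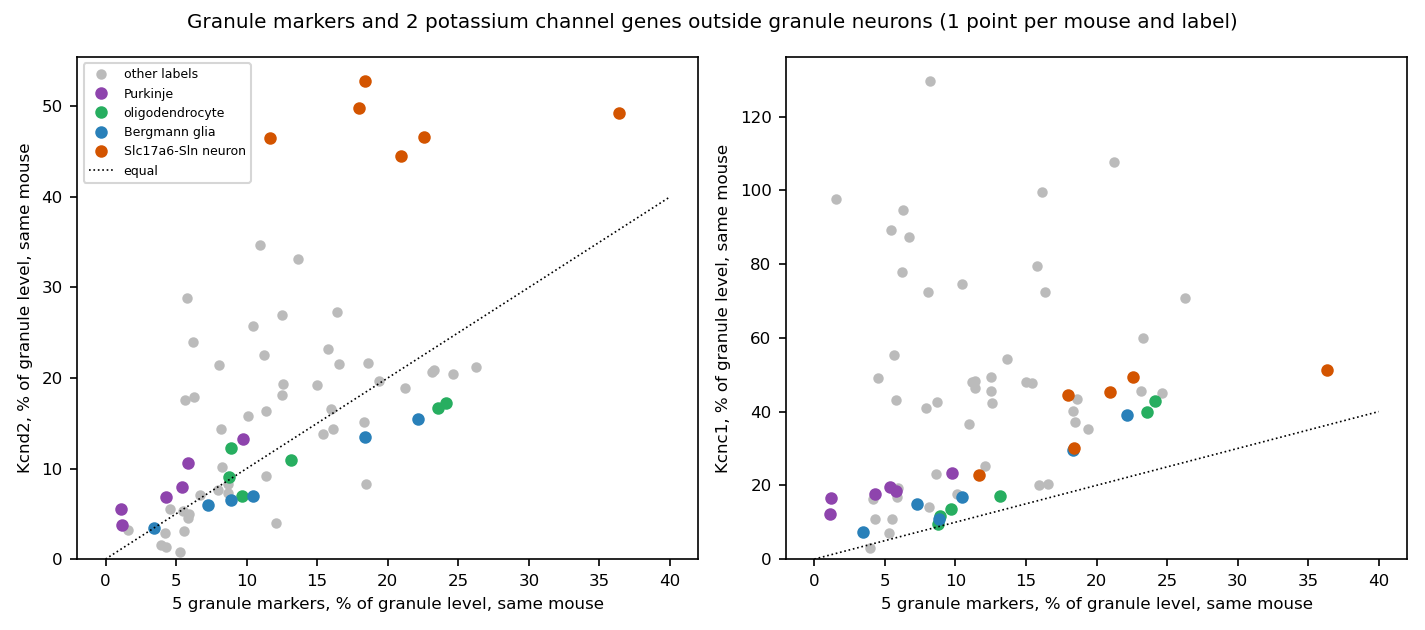
Each point is 1 label in 1 mouse: the x axis gives the summed level of 5 granule markers and the y axes *Kcnd2* (left) and *Kcnc1* (right), all as percentages of the granule level in the same mouse, with a dotted line of equal percentages. For *Kcnd2*, the Bergmann glia points lie below the line, with a median of 6.73% against 9.66% for the markers. Oligodendrocyte medians were 11.6% and 11.4%, and the Slc17a6-Sln points lie at 44.5% to 52.8%, well above the line.

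*Kcnc1*, *Kcnc2* and *Kcnc4* encode Kv3 pores, which open and close fast and allow repetitive firing. *Kcnc1* was highest in Pvalb-Cadm1 interneurons (427 ± 62.8 CPM) and granule neurons (423 ± 53.6 CPM), whose order differed between mice. Pvalb-Chrm2 interneurons (330 CPM), then Pvalb-Rab3b (222 CPM) and Lgi2 (202 CPM) interneurons, Slc17a6.Nrgn (194 CPM) and Slc17a6.Sln (176 CPM) neurons followed, and all neighbors overlapped. Pvalb-Nefh interneurons were at 118 CPM and VA at 113 CPM. OL were at 101 ± 77.6 CPM and BG at 87.8 ± 63.9 CPM, ahead of PCs at 76.8 ± 23.0 CPM and Dcn-Nnat nuclei at 70.5 ± 66.5 CPM. In PCs *Kcnc1* was at 12.2% to 23.2% of the granule level of the same mouse, in each mouse more than the granule markers.

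*Kcnc2* was highest in Slc17a6.Nrgn neurons, at 863 ± 275 CPM and 71.5% of all its UMIs. Pvalb-Chrm2 (356 CPM) and Lgi2 (188 CPM) interneurons and VA (66.8 CPM) came next, with overlapping ranges, and the other 9 labels were at 12.2 CPM or below. PCs held 87 *Kcnc2* UMIs, or 7.41 ± 6.26 CPM. *Kcnc4* was sparse throughout, from 33.1 ± 13.5 CPM in Pvalb-Cadm1, 31.8 CPM in Pvalb-Rab3b interneurons and 31.2 CPM in VA, all overlapping, to 1.76 ± 2.05 CPM in PCs. PC nuclei held 26 *Kcnc4* UMIs in all, 18 of them in WT mouse 1 and none in SCA1 mouse 3 and WT mouse 3, where a count of 0 allows up to 1.72 and 2.69 CPM. That limit covers counting error only.

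*Kcna1* and *Kcna2* encode Kv1 pores, low-threshold channels found on axons and basket cell terminals. *Kcna1* was highest in Pvalb-Nefh (366 ± 54.9 CPM) and Pvalb-Cadm1 (349 ± 50.4 CPM) interneurons, and OL followed at 283 ± 58.2 CPM. Pvalb-Rab3b (260 CPM) and Pvalb-Chrm2 (255 CPM) interneurons, granule neurons (236 CPM), PCs (184 ± 21.8 CPM), Lgi2 interneurons (178 CPM) and Slc17a6.Sln neurons (170 CPM) made up the middle of the order. Slc17a6.Nrgn neurons (107 CPM), VA (57.4 CPM), BG (43.1 CPM) and Dcn-Nnat nuclei (40.2 CPM) were lowest, and each label overlapped its neighbor.

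*Kcna2* was highest in Pvalb-Cadm1 (427 ± 79.6 CPM), Pvalb-Nefh (362 CPM) and Pvalb-Rab3b (336 ± 47.4 CPM) interneurons. These 3 did not overlap Pvalb-Chrm2 interneurons at 146 ± 44.0 CPM, and all later neighbors overlapped. Lgi2 interneurons (121 CPM), VA (116 CPM), granule neurons (97.2 CPM), Slc17a6.Nrgn (92.0 CPM) and Slc17a6.Sln (88.3 CPM) neurons preceded PCs at 66.5 ± 15.6 CPM. OL, BG and Dcn-Nnat nuclei were at 61.3, 56.5 and 37.3 CPM.

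Over the 13 labels, *Kcna1* and *Kcna2* ran alike (Pearson r = 0.68 of log2(CPM + 1) in WT mice), as did *Kcnc4* and *Kcna2* (0.68), while *Kcnc4* and *Kcnab1* ran in opposite directions (-0.68). Among 11427 genes, the profile most like that of *Kcnab1* was that of *Garnl3* (0.94), of *Kcnma1* those of *Vav3* and *Dner* (0.95 each), of *Kcnd2* those of the potassium channel genes *Kcnk12* and *Kcnh1* (0.93 each) and of *Kcnn2* that of *Lsamp* (0.94). *Dpysl4* was most like *Kcnc1* (0.95), *Gm28175* most like *Kcnc2* (0.95), *Gpr162* most like *Kcnc4* (0.92), *Cdc23* most like *Kcna1* (0.91) and *Plekhb2* most like *Kcna2* (0.95). The named genes were picked as those of highest r among 11427 over only 13 points, and no r was tested. The 13 points share libraries and differ in depth.

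SCA1 was then compared with WT in each label. Values in this comparison are CPM scaled by TMM, which corrects for genes that take a large share of a library, and tests are edgeR's quasi-likelihood test on genotype, adjusted for batch, with Benjamini-Hochberg adjustment over all genes tested. None of the 8 members tested in PCs was called at an adjusted p of at most 0.05, and none of all 10517 genes tested was (0%). At an unadjusted p under 0.05, 4 of 8 members and 720 genes (6.85%) passed. DESeq2 called 65 genes (0.618%) in PCs, and no member among them. The 3 SCA1 mice lay above all WT mice in 534 genes (5.08%) and below all of them in 530 genes (5.04%), and no member was among either. The 8 members had a median log2 fold change of -0.24, against 0.02 over all genes. Means of 7 of all 9 members were lower in SCA1.

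*Kcnab1* in PCs was at 2007, 2373 and 3299 TMM-scaled CPM in SCA1 mice 1, 2 and 3 and at 3119, 3588 and 5361 in WT mice 1, 2 and 3. SCA1 mouse 3 lay above WT mouse 1, so that the groups overlapped, and SCA1 mice 1 and 2 lay below all WT mice. The log2 fold change was -0.65 (95% interval -1.30 to -0.00, edgeR adjusted p = 0.730). Within batch 1 the log2 difference was -0.64 and within batch 2 it was -0.65. When the batch term was replaced by a block for the replicate number, *Kcnab1* was called (-0.64, edgeR adjusted p = 0.018), the SCA1 mouse being lower in 3 of 3 same-number pairs. That fit called 184 genes in PCs (1.75%) and no other member, and in this label the deviations of pair 2 correlated at only 0.06.

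*Kcnma1* was at 3900, 3647 and 5228 TMM-scaled CPM in SCA1 mice 1 to 3 and 4694, 4889 and 9084 in WT mice 1 to 3. SCA1 mouse 3 lay within the WT range, and WT mouse 3 was far above all others. The log2 fold change was -0.53 (-1.29 to 0.24, edgeR adjusted p = 0.948), with -0.27 within batch 1 and -0.61 within batch 2. Without WT mouse 3 it was -0.20.

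*Kcnn2* was at 80.7, 112 and 125 TMM-scaled CPM in SCA1 mice 1 to 3 and 60.02, 77.4 and 84.1 in WT mice 1 to 3, with SCA1 mouse 1 just under WT mouse 3. The mean was 43.2% higher in SCA1 and the log2 fold change was 0.51 (0.07 to 0.94, edgeR adjusted p = 0.595), with 0.42 and 0.54 within the batches. In CPM without TMM scaling the groups did not overlap, at 91.3 to 120 CPM in SCA1 and 60.8 to 71.8 CPM in WT, but on that scale 11.6% of all genes were higher without overlap and 2.60% lower. Without that scaling the median log2 fold change of all genes was 0.20 in place of 0.02, and the genotype difference of *Kcnn2* is therefore read from the TMM-scaled values. After each nucleus was thinned to 3000 UMIs, which left out 2 SCA1 and 10 WT nuclei, 24.6 ± 5.35% of SCA1 and 14.5 ± 2.56% of WT PC nuclei held a *Kcnn2* UMI (exact permutation test, two-sided p = 0.1, the smallest that 3 against 3 mice allow). Unthinned, the shares were 77.6% and 69.3% (exact permutation p = 0.6). Thinned shares carry no TMM scaling, and how many of all genes separate the groups on them was not computed. In OL, thinned alike from a median of 6453 UMIs, 5.22% of nuclei held a *Kcnn2* UMI, and in Dcn-Nnat nuclei, with a median of 8515 UMIs, 2.47% did. These were the lowest labels. Granule neurons, thinned alike, were at 15.1%, near WT PCs, and the remaining labels ran from 34.7% in Slc17a6.Nrgn neurons to 85.7% in VA.

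*Kcnd2* was at 802, 823 and 679 TMM-scaled CPM in SCA1 mice 1 to 3 and 1324, 633 and 2146 in WT mice 1 to 3. The SCA1 mice were close to each other, and WT mouse 2 lay below all of them. The log2 fold change was -0.83 (-1.67 to -0.00, edgeR adjusted p = 0.730), with -0.72 within batch 1 and -0.64 within batch 2, and it was -0.19 without WT mouse 3. The 5 granule markers moved with it: none of the 5 had a higher mean CPM in SCA1 PCs, and their sum was 52.7 to 227 CPM in SCA1 and 47.0 to 381 CPM in WT, with WT mice 1 and 3 highest. Their part in the difference was not tested.

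*Kcnc2* rested on 38, 16 and 10 UMIs in SCA1 mice 1 to 3 and 21, 2 and 0 in WT mice 1 to 3, or 13.3, 13.9 and 5.93 TMM-scaled CPM against 6.40, 2.63 and 0. The groups overlapped, since SCA1 mouse 3 lay under WT mouse 1. The log2 fold change was 1.71 (0.28 to 3.13, edgeR adjusted p = 0.583), and it was 2.94 without SCA1 mouse 1. *Kcnc1* (-0.28, -0.77 to 0.21), *Kcna2* (-0.21, -0.71 to 0.30) and *Kcna1* (-0.14, -0.56 to 0.28) had smaller log2 fold changes, with edgeR adjusted p of 0.981 or more, and *Kcnc4* did not pass the filter on low counts in PCs. The sign of *Kcna1* turned to 0.048 with library size as the only scaling and to 0.26 after thinning to 3000 UMIs. Thinned alike, 48.7 ± 6.33% of SCA1 and 35.4 ± 4.13% of WT PC nuclei held a *Kcna1* UMI (exact permutation test, two-sided p = 0.1), and at 5000 UMIs 62.2% and 60.1% did (exact permutation p = 0.8). These shares, too, carry no TMM scaling. Markers of PCs themselves also moved: 1 of 7 had a higher mean CPM in SCA1, and their sum was 11798 to 14931 CPM in SCA1 against 15985 to 19218 CPM in WT. Their part in the members' values was not tested.

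**Figure D4:**
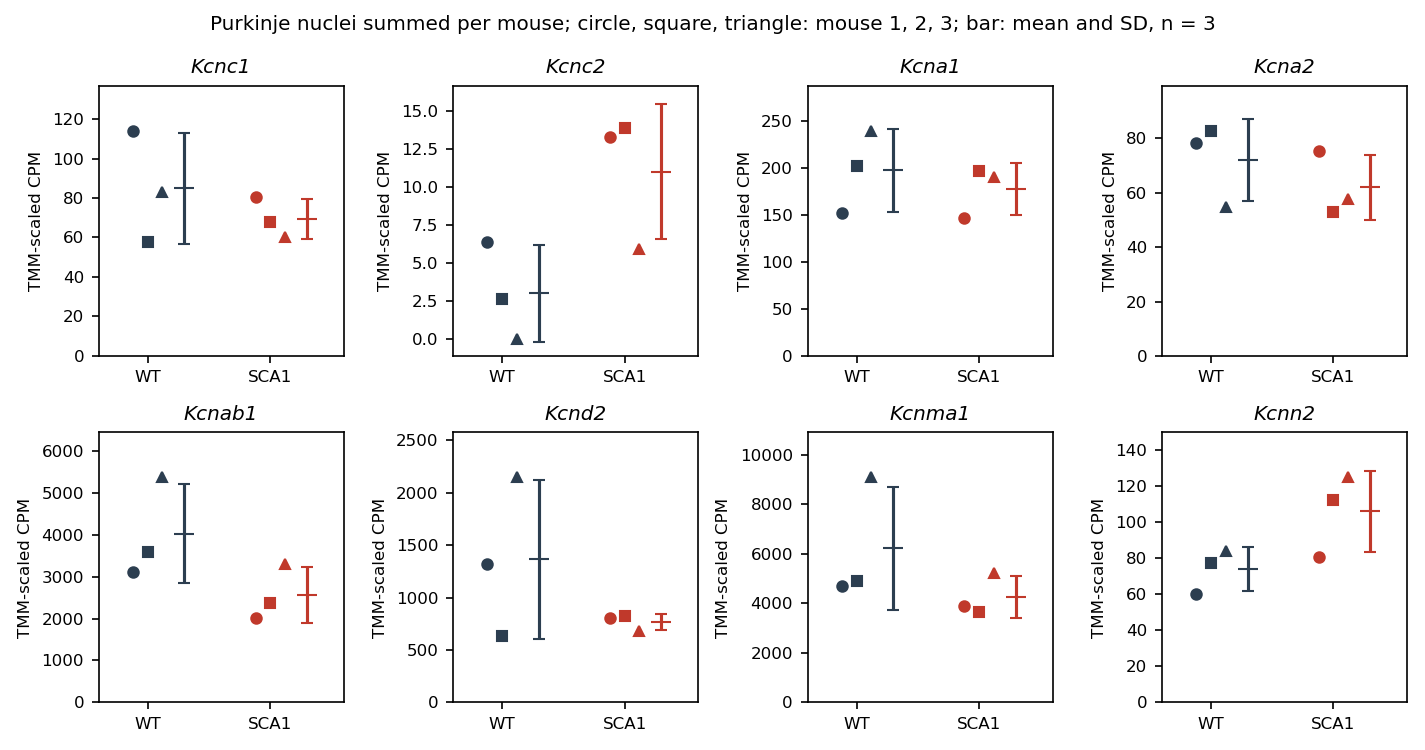
TMM-scaled CPM of the 8 tested genes in Purkinje nuclei summed per mouse, for WT and SCA1; points are mice 1, 2 and 3 (circle, square, triangle) and bars give the mean and SD of 3 mice. No gene separates the groups fully: for *Kcnn2*, SCA1 mouse 1 at 80.7 is just under WT mouse 3 at 84.1, and for *Kcnab1*, SCA1 mouse 3 at 3299 is above WT mouse 1 at 3119.

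Human *ATXN1* was counted in 31 of 146 SCA1 PC nuclei and in none of 146 WT PC nuclei, which allows a share with a UMI of up to 2.05%. That limit covers counting error and concerns detection, not expression. In granule neurons it was counted in 0.421% to 0.673% of nuclei of SCA1 mice and 0.277% to 0.505% of nuclei of WT mice. In SCA1 mice 1, 2 and 3, *Kcnab1* was at 1537, 1930 and 2124 CPM in PC nuclei with a human *ATXN1* UMI and at 2418, 2800 and 3884 CPM in those without, while median depth was 41307, 34274.5 and 58288 UMIs against 37282, 7287.5 and 56243.5 UMIs. *Kcnab1* was lower in the nuclei with human *ATXN1* in 3 of 3 mice, as was *Kcnd2*, at 397, 605 and 320 CPM against 1010, 1000.2 and 876 CPM, and the part of depth in this was not tested. Of all 10516 other genes tested in PCs, 10.4% were lower and 21.7% higher in these nuclei in 3 of 3 mice. The other 7 members were not in 1 direction in all 3 mice: *Kcnma1*, for example, was at 3906, 4081 and 4194 CPM with against 4513, 3802 and 5609 CPM without a human *ATXN1* UMI.

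In granule neurons, none of the 9 members was called, and 1 of 18267 genes was (0.00547%). With the replicate number as a block, 13 genes (0.0712%) were called and still no member. *Kcnd2*, at 10492, 12052 and 19578 TMM-scaled CPM in SCA1 mice 1 to 3 and 9377, 10248 and 19694 in WT mice 1 to 3, was higher in mouse 3 of both groups than in the others, and the log2 fold change was 0.11 (-1.18 to 1.39, edgeR adjusted p = 1.00). *Kcnma1* had the largest fold in this label, -0.43 (-0.82 to -0.04, edgeR adjusted p = 1.00), with 84.0, 41.7 and 32.7 in SCA1 mice 1 to 3 and 130, 43.9 and 49.3 in WT mice 1 to 3. Mouse 1 of each group was highest. The other 7 members were between -0.31 for *Kcnc4* and 0.24 for *Kcna1*, and no member was without overlap, against 1.59% of genes higher and 1.71% lower.

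The genotype effect in PCs was then set against that in granule neurons by an interaction in 1 edgeR model over both labels. The model held terms for mouse, label, label by batch and label by genotype. Of 16043 genes, 49 were called (0.305%), 10 with a higher and 39 with a lower effect in PCs, and no member was among them. The difference was -0.64 for *Kcnab1* (-1.06 to -0.22, adjusted p = 0.295), -0.85 for *Kcnd2* (-1.44 to -0.27, adjusted p = 0.361), 1.62 for *Kcnc2* (0.25 to 2.99, adjusted p = 0.547) and 0.41 for *Kcnn2* (0.05 to 0.78, adjusted p = 0.597). Without SCA1 mouse 2 the number of genes called rose to 301 of 16486. Among them were 2 of 9 members, *Kcnab1* (-0.71, edgeR adjusted p = 0.046) and *Kcnd2* (-1.11, edgeR adjusted p = 4.5e-05). Without WT mouse 2, 177 genes were called, and with the label by batch term left out none was.

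**Figure D5:**
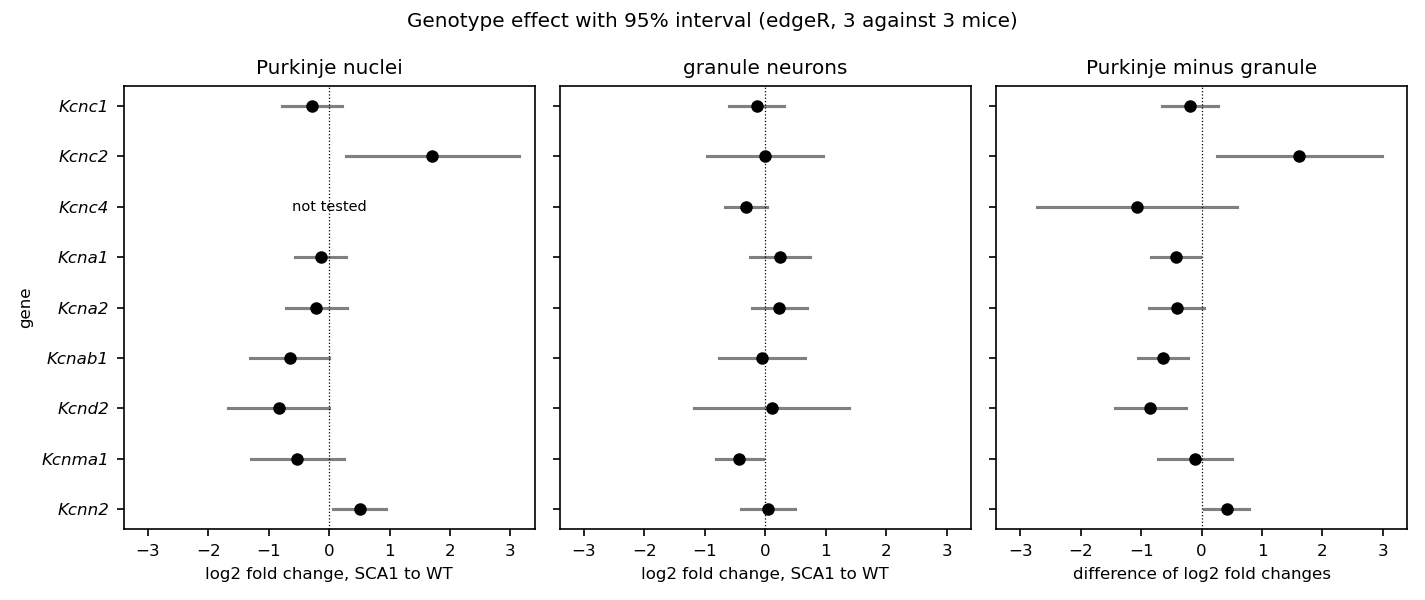
Log2 fold change of SCA1 to WT with its 95% interval from edgeR for the 9 genes in Purkinje nuclei (left; *Kcnc4* was not tested) and granule neurons (middle), and the difference of both (right). In Purkinje nuclei *Kcnab1* is at -0.65 and *Kcnn2* at 0.51, and in granule neurons they are at -0.05 and 0.04.

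Across the 5 interneuron labels, 43 fits of members gave log2 fold changes from -0.28 to 0.84, 40 of them smaller than 0.5 in size, and none was called (0% of genes in each of the 5 labels by edgeR, with 120 to 219 genes at an unadjusted p under 0.05, and by DESeq2 1 gene in Lgi2 and none in the other labels). With the replicate number as a block, 1 gene each was called in Lgi2 and Pvalb-Rab3b interneurons, and neither was a member. *Kcnd2* in Pvalb-Cadm1 interneurons had the largest, 0.84 (0.09 to 1.59, edgeR adjusted p = 1.00), with 2129, 714 and 1989 TMM-scaled CPM in SCA1 mice 1 to 3 and 1439, 752 and 624 in WT mice 1 to 3, so that SCA1 mouse 2 lay within the WT range. Without SCA1 mouse 3 the fold was 0.28. The 5 granule markers in this label, as a percentage of the granule level, were at 21.2%, 5.47% and 8.23% in SCA1 mice 1 to 3 and 16.1%, 6.71% and 1.57% in WT mice 1 to 3. *Kcnd2* was at 18.9%, 5.34% and 10.1% and at 14.3%, 7.03% and 3.19%, the same order of the mice. The part of free granule RNA in this fold was not tested. *Kcna1* in Pvalb-Chrm2 interneurons was the member there without overlap (3.62% of genes were higher without overlap), at 254, 495 and 236 in SCA1 mice 1 to 3 and 209, 205 and 190 in WT mice 1 to 3, with a log2 fold change of 0.66 (0.01 to 1.32, edgeR adjusted p = 1.00). Without SCA1 mouse 2 the fold was 0.28. In this label, 38 of 81 nuclei of SCA1 mouse 1 and none of any other mouse lay in a cluster where this label was the most frequent, so it could not be fitted on such nuclei.

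In the BG, VA and OL labels, 26 fits gave log2 fold changes from -1.34 to 0.35 and no call of a member (0% of genes in BG and VA and 0.00866% in OL). *Kcnc4* in VA was lower in SCA1 without overlap (2.51% of genes were), at 26.1, 20.7 and 30.1 TMM-scaled CPM against 31.5, 37.7 and 45.7, with a log2 fold change of -0.53 (edgeR adjusted p = 1.00). *Kcnc4* was also lower without overlap in Slc17a6.Nrgn neurons (2.69% of genes were), at a mean of 16.7 against 21.0. In Dcn-Nnat nuclei *Kcnd2* had a log2 fold change of -1.01 (-1.90 to -0.11, edgeR adjusted p = 1.00). Its level there, 0.755% to 8.28% of the granule level, was below that of the granule markers, 3.95% to 18.5%, in 6 of 6 mice, and WT mouse 1 was highest in both. In all 13 labels, 107 edgeR fits of members with the batch term gave no call.

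A list of 40 other potassium channel and auxiliary subunit genes was read in the same fits. In PCs 28 of them were tested, 6 with a positive and 22 with a negative log2 fold change (47.5% of all genes tested were negative), a median of -0.32 against 0.02 over all genes, and edgeR called none, with 6 at an unadjusted p under 0.05 (6.85% of all genes). With 1 mouse left out, that number ran from 3 of 27 (without WT mouse 3) to 11 of 28 (without WT mouse 2). DESeq2 and the fit with the replicate number as a block each called 1 of the 28, *Kcnmb4*, and edgeR without the filter on low counts called 4 of 39 (1.04% of all genes then tested), *Kcnmb4*, *Kcnb2*, *Kcnh1* and *Kcnj6*. All 7 auxiliary subunit genes tested were negative, as were 8 of 9 leak and inward rectifier genes and 7 of 11 voltage-gated pores, while *Kcnt1*, the 1 gene tested among the other calcium- or sodium-activated pores, was at 0.64 (edgeR adjusted p = 0.976). Granule and PC markers also moved in PCs, as given above, and their part in the direction of this list was not tested. In granule neurons 38 were tested, 12 positive and 26 negative (50.2% of all genes were negative), with a median of -0.11 against -0.00095 over all genes and no call by edgeR or DESeq2. With 1 mouse left out, 9 (without SCA1 mouse 3) to 21 (without WT mouse 3) of the 38 were positive, so the negative majority depended on 1 mouse. By edgeR, 3 of the 38 were at an unadjusted p under 0.05, as were 1.82% of all genes.

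The 4 genes of that list with the smallest p in PCs were *Kcnmb4*, *Kcng4*, *Kcnb2* and *Kcnh1*. *Kcnmb4*, an auxiliary subunit of the BK channel that *Kcnma1* forms, was at 33.6, 26.9 and 39.1 TMM-scaled CPM in SCA1 mice 1 to 3 and 71.3, 59.1 and 99.8 in WT mice 1 to 3, without overlap. Its log2 fold change in PCs was -1.20 (-1.79 to -0.60, edgeR adjusted p = 0.187), and its difference from granule neurons was -1.22 (-1.67 to -0.77, edgeR adjusted p = 0.021), 1 of the 49 genes called. That call was lost without SCA1 mouse 1 (adjusted p = 0.174), WT mouse 1 (0.144), WT mouse 3 (0.108) or the label by batch term (0.434). With the replicate number as a block *Kcnmb4* was also called in PCs (-1.19, edgeR adjusted p = 0.011). *Kcng4*, a modifier of Kv2 channels, was at 40.2, 26.0 and 31.4 against 54.5, 53.8 and 54.6, also without overlap, with a log2 fold change of -0.73 (edgeR adjusted p = 0.463). The difference of *Kcng4* from granule neurons was -0.06 and not called, but its interval was wide (-0.84 to 0.71) and included the fold in PCs. *Kcnb2*, a Kv2 pore, and *Kcnh1*, a pore of the ether-a-go-go family, had larger log2 fold changes of -1.52 and -1.64 at edgeR adjusted p of 0.501 and 0.517, and WT mouse 2 was the lowest of the 6 mice in both, at 2.63. With 1 mouse left out, *Kcnb2* ran from -1.90 to -0.99 and *Kcnh1* from -2.03 to -0.87. WT mouse 2 was also lowest in the granule marker sum in PCs, and the part of free granule RNA in these 2 folds was not tested. *Kcnmb4* and *Kcng4* were the 2 of 28 genes lower without overlap (5.04% of all genes were), and 1 of 28 was higher without overlap (5.08% of all genes were). That gene, *Kcna4*, a Kv1 pore named here after its values were seen, was at 12.2, 15.6 and 21.9 TMM-scaled CPM in SCA1 mice 1 to 3 and 9.14, 11.8 and 5.25 in WT mice 1 to 3, with a log2 fold change of 0.85 (edgeR adjusted p = 0.738).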

How the data were processed

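Nuclei of whole cerebella were sequenced with 1 library per mouse. The authors deposited whole-number UMI counts per gene and nucleus that were not normalized, with a Seurat cluster and a SingleR label per nucleus. Per the paper's methods, reads were aligned with Cell Ranger (the submitters' processing notes name versions 4.0.0, 5.0.1 and 6.0.1, mm10 and Seurat 4.0.4) with intron reads counted, and debris was removed with DIEM at a higher minimum for the first run, which leaves deeper nuclei there. Transcripts of free RNA remain in such counts. No doublet caller was run here.

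The 9 genes, the gene lists and the tests were chosen with earlier results of these data known. Counts were summed per mouse and label, and labels with at least 10 nuclei in each of 6 mice were kept. Sums were tested in edgeR 4.0.16 (R 4.3.3; TMM factors, filterByExpr at 10 counts and 15 in total, terms genotype and inferred batch), and genes with a p of 0.05 or less after Benjamini-Hochberg adjustment were called. The interaction model took both labels of a mouse as separate sums, with terms for mouse, label, label by batch and label by genotype. Labels were thus compared within mice. Batch differences are of log2(TMM-scaled CPM + 1). Mice are littermates, and p-values measure the spread between 3 mice per group. Named beside the 9 genes were the potassium channel genes of the list of 40 that were called in PC, granule or interneuron labels or, with fewer than 4 called in PCs, the 4 of smallest p there, and the genes most alike over labels by Pearson r among genes of at least 20 CPM in 1 label. Alternatives used DESeq2 1.42.0, limma 3.58.1 (prior count 2), scran 1.30.0 and scater 1.30.1. The statistics were tested on simulated data. Python 3.11.15, numpy 2.4.6, pandas 2.3.3, scipy 1.17.1 and matplotlib 3.10.9 were used.

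The deviations of samples with the same replicate number correlated at r = 0.86, 0.25 and 0.76 for pairs 1, 2 and 3 in granule neurons. In PCs these values were 0.67, 0.06 and 0.49. In both labels WT mouse 2 correlated more with SCA1 mouse 3 (0.38 and 0.09) than with SCA1 mouse 2. The block is therefore an alternative fit and does not show that the mice are paired. It stands beside granule results and those of the 4 interneuron labels in which every pair was above 0.1 (all but Pvalb-Chrm2). In PCs it is given only where it changes a call. The labels mark pair 1 only by its library numbers, and they do not mark pairs 2 and 3.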

Additional observations from a re-analysis of the deposited data

Results flagged for a closer look

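The log2 fold change of *Kcnmb4*, a BK channel subunit gene, differed between PCs and granule neurons by the interaction test in edgeR (difference -1.22, adjusted p = 0.021). The gene was named for having the smallest p of the list of other potassium channel genes in PCs, where it was not called itself (edgeR adjusted p = 0.187). Its TMM-scaled CPM in PCs was lower in each of 3 SCA1 mice than in any WT mouse, as it was for 5.04% of all genes. The call was lost without SCA1 mouse 1 (adjusted p = 0.174), WT mouse 1 (0.144) or WT mouse 3 (0.108) and without the label by batch term (0.434). The difference stayed between -1.30 and -1.03 in all 13 alternatives.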

How the results depend on the processing

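In PCs the number of genes called, 0 by edgeR with TMM, was 8 with RLE factors, 2 with library size only, 65 with DESeq2, 223 without the filter on low counts, 1 with labels matching their cluster, 4 after thinning to 3000 UMIs and 0 to 6 with 1 mouse left out. A limma-trend fit on single nuclei called 407, but nuclei of 3 mice per group are not replicates of genotype, so its p-values are too small and its calls are not set beside those of the sums. In granule neurons it was 15 with DESeq2, 2 without the filter and 0 without batch, and 0 to 1 with 1 mouse left out. In interneurons DESeq2 called 1 gene in Lgi2, and without the filter 30 were called in Lgi2, 17 in Pvalb-Cadm1, 28 in Pvalb-Chrm2 and 8 in Pvalb-Rab3b. With 1 mouse left out, the counts were 0 to 4 in Lgi2 and Pvalb-Chrm2, 0 to 3 in Pvalb-Cadm1, 0 to 1 in Pvalb-Nefh and 0 to 2 in Pvalb-Rab3b. The interaction called 255 genes without the filter, 0 without batch, 26 with nuclei of at least 3000 UMIs and 14 to 301 with 1 mouse left out (14 without WT mouse 3 and 21 without SCA1 mouse 1).

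With the replicate block in place of batch, 184 genes were called in PCs, and *Kcnab1* was among them (-0.64, edgeR adjusted p = 0.018). In PCs, as in granule neurons, every mouse but WT mouse 2 correlated best with its own number. With the block 13 genes were called in granule neurons and 1 each in Lgi2 and Pvalb-Rab3b interneurons, and it changed no other call of a member in the PC, granule and 5 interneuron labels or in the interaction. It was not run in the other 6 labels.

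In PCs, *Kcnab1* stayed between -0.81 and -0.46 and *Kcnn2* between 0.37 and 0.69 in all 17 alternatives. *Kcna1* turned to 0.048 with library size only, 0.26 after thinning and 0.16 with limma-trend on nuclei, where *Kcnb2* was at 0.019. *Kcnmb4* was called with DESeq2, without the filter and with the block, and *Kcnb2*, *Kcnh1* and *Kcnj6* without the filter. In granule neurons *Kcnc2*, at -0.0014, was at 0.079 with library size only, 0.19 with limma-trend on the sums, 0.0050 without the filter, 0.066 with the replicate block, 0.45 with labels matching their cluster, 0.0046 with nuclei of at least 3000 UMIs and 0.45 after thinning, and -0.35 to 0.57 with 1 mouse left out. *Kcnn2* was at -0.051 with nuclei of at least 3000 UMIs and -0.067 after thinning. With 1 mouse left out, *Kcnn2* ran from -0.10 to 0.18, *Kcnab1* from -0.29 to 0.22 and *Kcnd2* from -0.12 to 0.43 there. The PC minus granule difference of *Kcnc1* was 0.0030 and of *Kcnma1* 0.091 with library size only. Without the filter *Kcnd2* was called (-0.86, edgeR adjusted p = 0.0041), 1 of 255 genes called among 27239. With 1 mouse left out the PC minus granule difference ran from -0.26 to 0.025 in *Kcnc1*, 0.95 to 2.95 in *Kcnc2* and -1.52 to 0.62 in *Kcnc4*. It ran from -0.71 to -0.50 in *Kcnab1*, -1.11 to -0.57 in *Kcnd2*, -0.33 to 0.22 in *Kcnma1* and -1.30 to -1.04 in *Kcnmb4*. *Kcna2* in PCs was at 82.5 CPM as a mean over nuclei. The share of PC nuclei with a UMI, SCA1 minus WT, turned to 9.71 and 12.8 points for *Kcnc1* and 2.02 and 4.37 points for *Kcna2* at 5000 UMIs and unthinned. The cause of these changes was not tested. The label matching its cluster gave no value in Lgi2, Pvalb-Chrm2 and Pvalb-Rab3b.

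PC sums rest on 29 to 76 nuclei a mouse, and *Kcnc2* and *Kcnc4* on under 40 UMIs a mouse there, which limits what can be detected. A mouse left out of batch 1 leaves the other without a partner.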
